A study of Mus musculus with 6 samples.

Results

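Transcripts of 9 genes of adrenergic receptor and cyclic AMP signaling were examined in the left ventricles (LVs) of *Lztr1* R409C/+ mice and wild-type (WT) mice: the receptors *Adrb1*, *Adra1a* and *Adra1b*, the stimulatory G protein gene *Gnas*, the adenylyl cyclases *Adcy5* and *Adcy6*, the phosphodiesterases *Pde3a* and *Pde4d*, and the protein kinase A (PKA) subunit *Prkar1a*. They were chosen by gene name for their place in the pathway, with earlier results of these data known, and were matched by gene identifier. They make up 9 of 56923 genes listed and 9 of 17212 genes with enough reads to be tested. All 9 had a lower mean in R409C/+ LVs, by between 0.085 and 0.65 on the log2 scale. None passed the test after adjustment over all genes, so none is called changed. In the fit to all 6 mice the differences were largest for *Adra1a*, *Adrb1* and *Pde3a*.

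The study modelled Noonan syndrome, a RASopathy, with mice carrying a dominant *LZTR1* substitution. LZTR1 is an adaptor that directs RAS family proteins to degradation. The mRNA-Seq compared LVs of 3 WT mice with those of 3 R409C/+ mice, labelled Mut, at 12 weeks of age. The R409C substitution was put into one *Lztr1* allele in the germ line by CRISPR/Cas9, so every cell of the mutant mice carries it, and the mice were bred on C57BL/6J. GEO's labels give the tissue as heart, and the methods give the LV, taken after perfusion with PBS. Each library is from 1 mouse, the methods name males, and no treatment is given for these mice.

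In the ventricle, norepinephrine and epinephrine bind β-adrenergic receptors, which couple through the stimulatory G protein Gs to adenylyl cyclases that make cyclic AMP. Cyclic AMP releases the catalytic subunits of PKA from the regulatory subunits, and PKA phosphorylates calcium handling proteins to make each beat stronger and faster to relax. Phosphodiesterases break cyclic AMP down in small compartments of the cell. The α1 receptors instead couple through Gq to phospholipase C, and are known for their part in hypertrophic growth.

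Cyclic AMP also acts on transcription through CREB, which binds the cyclic AMP response element, so the promoters of the 9 genes were read for it. RefSeq windows of 300 bases on GRCm38.p6, from 250 bases before to 50 after a transcript start, were matched for 6 of the 9 genes, in 15 windows. *Adra1a*, *Adcy6* and *Pde3a* had no matched window. The full palindromic element TGACGTCA was present in 2 overlapping windows of *Prkar1a* and in no window of the other 5 genes. Of 32851 promoter windows of the same length in the mouse table, 1.79% held it on either strand. The half-site TGACG, or CGTCA on the other strand, was present in 7 windows of 3 genes, *Adrb1*, *Gnas* and *Prkar1a*, and in 20.8% of all windows. Some of the 7 windows overlap and share matches, so they are not 7 separate sites, and every full element also holds half-sites. One window of each of these 3 genes is printed 5′ to 3′ on the strand of the gene, with each match in capitals: *Prkar1a* at chr11:109650612-109650911, *Adrb1* at chr19:56721867-56722166 and *Gnas* at chr2:174329756-174330055. A match describes the letters of the window and is not a measured binding site.
Prkar1a: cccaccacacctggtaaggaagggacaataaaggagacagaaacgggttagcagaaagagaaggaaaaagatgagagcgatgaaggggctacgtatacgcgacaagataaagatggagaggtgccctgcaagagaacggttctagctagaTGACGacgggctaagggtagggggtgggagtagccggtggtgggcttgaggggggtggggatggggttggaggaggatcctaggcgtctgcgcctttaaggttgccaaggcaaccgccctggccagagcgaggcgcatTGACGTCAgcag
Adrb1: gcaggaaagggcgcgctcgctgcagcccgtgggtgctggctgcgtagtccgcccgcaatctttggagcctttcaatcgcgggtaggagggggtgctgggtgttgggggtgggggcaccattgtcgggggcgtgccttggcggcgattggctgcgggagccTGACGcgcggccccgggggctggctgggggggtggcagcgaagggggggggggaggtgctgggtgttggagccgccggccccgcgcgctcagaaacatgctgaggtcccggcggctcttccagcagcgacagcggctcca
Gnas: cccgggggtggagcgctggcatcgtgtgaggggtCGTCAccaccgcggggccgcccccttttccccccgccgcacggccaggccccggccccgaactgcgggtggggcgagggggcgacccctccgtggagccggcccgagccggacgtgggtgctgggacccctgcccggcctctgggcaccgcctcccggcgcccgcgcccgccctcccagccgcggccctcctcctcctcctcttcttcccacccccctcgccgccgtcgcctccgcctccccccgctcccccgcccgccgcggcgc

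The libraries held between 66130887 and 72641124 counts, and a count of 3 corresponded to between 0.0317 and 0.0541 CPM, which are counts per 1000000 counts of the scaled library. Libraries stood apart in the share of mitochondrially encoded counts, which was 13.8% in WT mouse 3, 45.4% in R409C/+ mouse 1 and between 29.7% and 37.3% in the other 4 mice. *Lztr1* itself was at 24.2, 24.2 and 22.2 CPM in WT LVs and 23.9, 27.9 and 25.3 CPM in R409C/+ LVs, and since the substitution leaves the transcript in place, its level does not check the genotype. Cardiomyocyte markers were abundant in all mice, with a summed level of 39523 to 43728 CPM in WT and 30241 to 42594 CPM in R409C/+ LVs, lowest in R409C/+ mouse 1. Of the 4 atrial markers, *Myl7* and *Sln* were near 0. The 2 that were tested had log2 fold changes of 0.058 and 0.53, neither at an unadjusted p under 0.05 in edgeR. The summed ranges of the 2 genotypes overlapped for endothelial (508.3 to 690.7 CPM in WT, 462.5 to 770.9 CPM in R409C/+), fibroblast (621.3 to 808.4, 663.7 to 801.0), smooth muscle and pericyte (140.5 to 167.1, 109.1 to 198.3), atrial (38.1 to 76.6, 53.5 to 107.0) and sympathetic neuron and Schwann cell markers (6.37 to 8.22, 4.98 to 8.68), the last with *Th* at 0 counts in all mice. All 6 macrophage markers were higher in R409C/+ LVs, with sums of 244.1 to 351.4 CPM against 152.6 to 179.2 CPM in WT, and all 5 erythroid markers had a higher mean, with sums of 1042 to 2625 CPM against 578.8 to 1479 CPM. In lists whose sums overlapped, 2 of 6 fibroblast and 1 of 6 endothelial markers were higher at an unadjusted p under 0.05 in edgeR. The erythroid sums overlapped too, and 3 of 5 erythroid markers were higher at that threshold. Of all genes, 5.77% were higher and 2.86% lower by it. At that threshold 2 of 6 smooth muscle and pericyte markers were lower, and none of these markers passed after adjustment. In whole tissue, fewer cells of a type and less RNA per cell cannot be told apart. The part of cell makeup in the differences below was not tested. Over all genes, the robust quasi-likelihood F test of edgeR, adjusted by the Benjamini-Hochberg method, called 7 of 17212 genes, or 0.0407%. Its p-values weigh each difference against the spread between these mice, estimated with information shared across genes.

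*Adra1a*, which encodes the α1A receptor, had the largest difference of the 9 genes in the fit to all mice. The gene (ENSMUSG00000045875.14, GRCm39 chr14:66872700-67012152) was at 20.6, 15.4 and 15.9 CPM in the 3 WT mice and at 11.8, 10.3 and 10.9 CPM in the 3 R409C/+ mice. Every R409C/+ mouse lay below every WT mouse, and the 3 R409C/+ values lay close together. The mean was 17.3 ± 2.89 CPM (SD, n = 3) in WT and 11.0 ± 0.761 CPM (SD, n = 3) in R409C/+ LVs. The fitted log2 fold change was -0.65 (SE 0.18, 95% interval -1.04 to -0.27), or 63.5% of the WT level. Its unadjusted p in edgeR was 0.00288 and its Benjamini-Hochberg adjusted p 0.283. The difference passed a threshold of 0.05 for this gene taken singly and did not hold after adjustment over all genes. Leaving out each mouse in turn gave log2 fold changes from -0.73 to -0.51, with an unadjusted p under 0.05 in 6 of 6 fits. *Adrb1* differed more than *Adra1a* without WT mouse 1 (-0.59 against -0.51), without R409C/+ mouse 3 (-0.68 against -0.65) and after a correction for gene length (-0.61 against -0.55).

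*Adrb1*, which encodes the β1 receptor, the main β receptor of cardiomyocytes, came next. This gene (ENSMUSG00000035283.6, chr19:56710631-56721545) was at 19.7, 27.1 and 24.6 CPM in WT and at 14.0, 15.7 and 21.9 CPM in R409C/+ LVs. R409C/+ mice 1 and 2 lay below all WT mice, while R409C/+ mouse 3 lay within the WT range. The mean was 23.8 ± 3.76 CPM (SD, n = 3) in WT and 17.2 ± 4.14 CPM (SD, n = 3) in R409C/+ LVs, with a log2 fold change of -0.47 (SE 0.20, 95% interval -0.90 to -0.031). In edgeR the unadjusted p was 0.0378 and the Benjamini-Hochberg adjusted p 0.554. The unadjusted p stayed under 0.05 in 2 of the 6 fits that left out a mouse, over log2 fold changes of -0.68 to -0.35.

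*Adra1b*, which encodes the α1B receptor (ENSMUSG00000050541.15, chr11:43665433-43792037), was at 32.3, 31.9 and 20.4 CPM in WT and at 25.7, 23.3 and 25.2 CPM in R409C/+ LVs. WT mouse 3 was the lowest of all 6 mice, and the groups overlapped. The log2 fold change of -0.19 (SE 0.19, 95% interval -0.60 to 0.22) had an adjusted p of 0.823 in edgeR. It was -0.081 without WT mouse 1, -0.091 without WT mouse 2 and -0.38 without WT mouse 3. Without WT mouse 3 and R409C/+ mouse 1 together it was -0.40, with an unadjusted p of 0.0216.

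**Figure D1:**
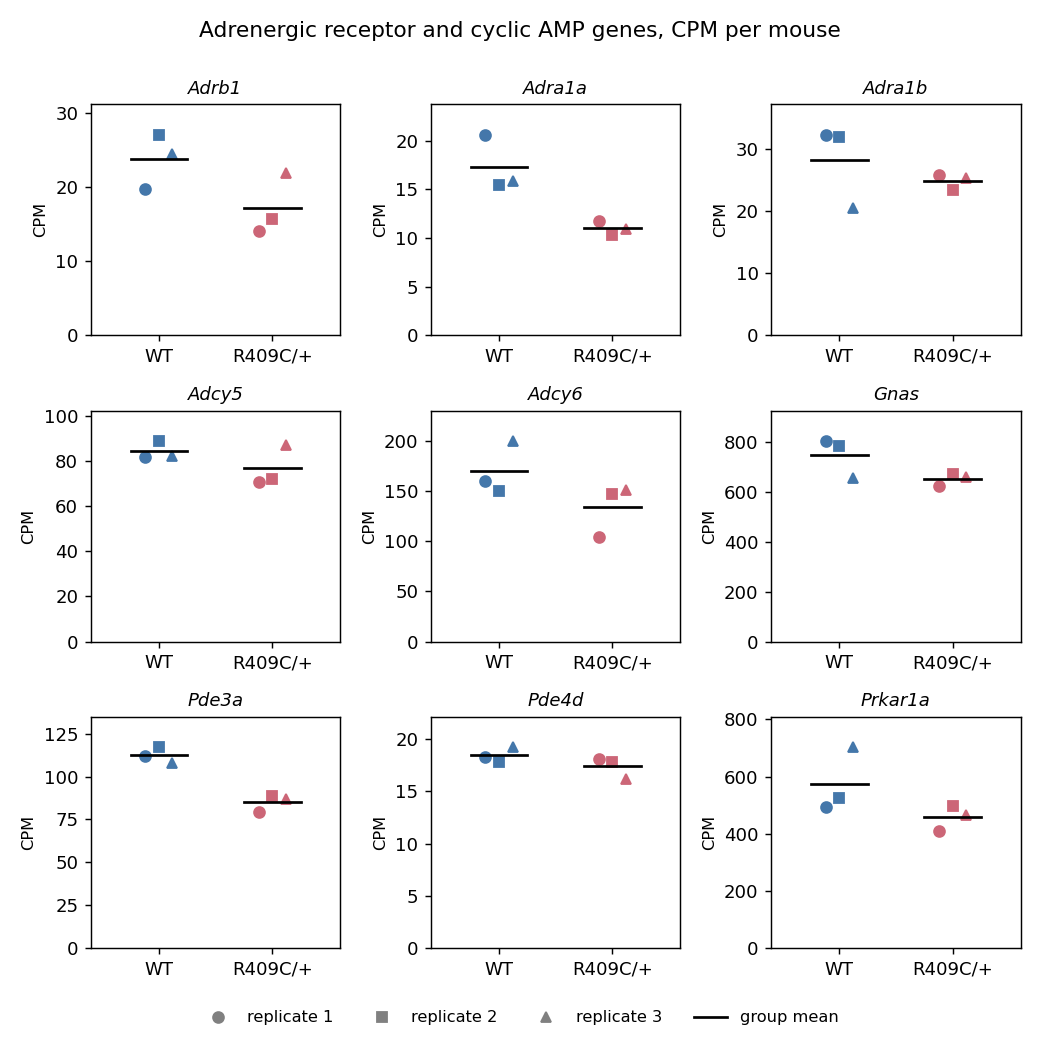
Level of each of the 9 genes in CPM (linear axes that start at 0) in the 3 WT and 3 R409C/+ LVs; a point is 1 mouse, its shape the replicate number, and the bar the group mean. The groups do not overlap for Adra1a and Pde3a, while for Adrb1 the value of 21.9 CPM in R409C/+ mouse 3 lies within the WT range.

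*Gnas*, whose main product is the stimulatory α subunit Gs, was the most abundant of the 9 genes by group mean in CPM. In WT mouse 3 *Prkar1a* was higher (702.3 against 656.2 CPM). The locus is imprinted and makes further transcripts from other promoters, and gene counts pool all of them. *Gnas* (ENSMUSG00000027523.21, chr2:174126022-174188537) was at 804.6, 783.2 and 656.2 CPM in WT and at 623.3, 672.5 and 660.8 CPM in R409C/+ LVs. WT mouse 3 lay among the R409C/+ mice, and the other WT mice above them. The log2 fold change was -0.20 (SE 0.16, 95% interval -0.55 to 0.16), with an adjusted p of 0.779 in edgeR.

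The 2 cyclases of the group are the main forms of cardiomyocytes, both inhibited by calcium. *Adcy6* (ENSMUSG00000022994.10, chr15:98487854-98507957) was at 160.3, 150.03 and 199.8 CPM in WT and at 103.7, 146.6 and 150.6 CPM in R409C/+ LVs. R409C/+ mouse 1 was the lowest and WT mouse 3 the highest, and the other 4 mice lay between 146.6 and 160.3 CPM. The log2 fold change of -0.35 (SE 0.19, 95% interval -0.76 to 0.061; adjusted p 0.642, edgeR) was -0.062 without these 2 mice, which are also those with the highest and lowest mitochondrially encoded share. *Adcy5* (ENSMUSG00000022840.10, chr16:34975023-35126113) was at 81.5, 88.8 and 82.1 CPM in WT and at 70.8, 72.2 and 87.1 CPM in R409C/+ LVs. R409C/+ mouse 3 lay within the WT range. Its log2 fold change was -0.13 (SE 0.15, 95% interval -0.46 to 0.20; adjusted p 0.850, the same test). It was -0.23 without R409C/+ mouse 3 and -0.087 without R409C/+ mouse 1.

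*Pde3a*, the phosphodiesterase of the sarcoplasmic reticulum that cyclic GMP inhibits, was lower without overlap. The gene (ENSMUSG00000041741.11, chr6:141194888-141453174) was at 112.03, 117.1 and 107.8 CPM in WT and at 79.3, 88.8 and 86.9 CPM in R409C/+ LVs. Both groups were tight, and the lowest WT mouse lay above the highest R409C/+ mouse. The mean was 112.3 ± 4.65 CPM (SD, n = 3) in WT and 85.0 ± 5.01 CPM (SD, n = 3) in R409C/+ LVs, 75.7% of the WT level by the fit. The log2 fold change was -0.40 (SE 0.15, 95% interval -0.72 to -0.085). In edgeR the unadjusted p was 0.0170 and the Benjamini-Hochberg adjusted p 0.478. With 1 mouse left out, the log2 fold change ranged from -0.44 to -0.36 and the unadjusted p was under 0.05 in 4 of 6 fits. *Pde4d*, a cyclic AMP-specific enzyme found with β receptors and ryanodine receptors (ENSMUSG00000021699.18, chr13:108586482-110092497), was nearly level at 18.3, 17.8 and 19.2 CPM in WT and 18.1, 17.9 and 16.2 CPM in R409C/+ LVs. The groups overlapped, and the 95% interval of its log2 fold change of -0.085 (SE 0.15) ran from -0.42 to 0.25. It was between -0.12 and -0.037 with 1 mouse left out, the latter without R409C/+ mouse 3.

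*Prkar1a* encodes the type I regulatory subunit of PKA, which holds the catalytic subunits inactive until cyclic AMP binds, and is the gene with the full response element printed above. The gene (ENSMUSG00000020612.17, chr11:109513434-109560633) was at 492.5, 526.6 and 702.3 CPM in WT and at 410.8, 498.6 and 464.9 CPM in R409C/+ LVs. WT mouse 3 was the highest of all mice, R409C/+ mouse 1 the lowest, and R409C/+ mouse 2 lay just above WT mouse 1. The log2 fold change was -0.32 (SE 0.18, 95% interval -0.72 to 0.070), with an adjusted p of 0.653 in edgeR. Without WT mouse 3 and R409C/+ mouse 1 it was -0.081.

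Read together, 9 of 9 genes had a log2 fold change under 0, against 48.6% of the 17212 genes tested, and their median log2 fold change was -0.32 against 0.012 for all genes. Since the genes share 6 libraries and belong to 1 pathway, these 9 signs are not 9 independent observations. The genes were also chosen with earlier results of these data known. By the unadjusted p under 0.05, 3 of the 9 were lower and 0 higher, against 2.86% of all genes lower and 5.77% higher. The groups did not overlap, with all R409C/+ mice lower, for 2 of the 9, against 7.23% of all genes lower and 8.3% higher. With edgeR's p-values adjusted over all genes, 0 of the 9 genes were called, and DESeq2's Wald test also called 0. All 9 kept a log2 fold change under 0 in each of 16 alternative fits, which share these mice. R409C/+ mouse 1, with the highest mitochondrially encoded share, was the lowest of the 6 mice for 6 genes. It lay below every WT mouse for 7 genes, R409C/+ mouse 2 for 5 and R409C/+ mouse 3 for 4. Without R409C/+ mouse 1 and WT mouse 3, the median of the 9 was -0.25, and 3 genes, *Adra1a*, *Adra1b* and *Pde3a*, had an unadjusted p under 0.05.

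**Figure D2:**
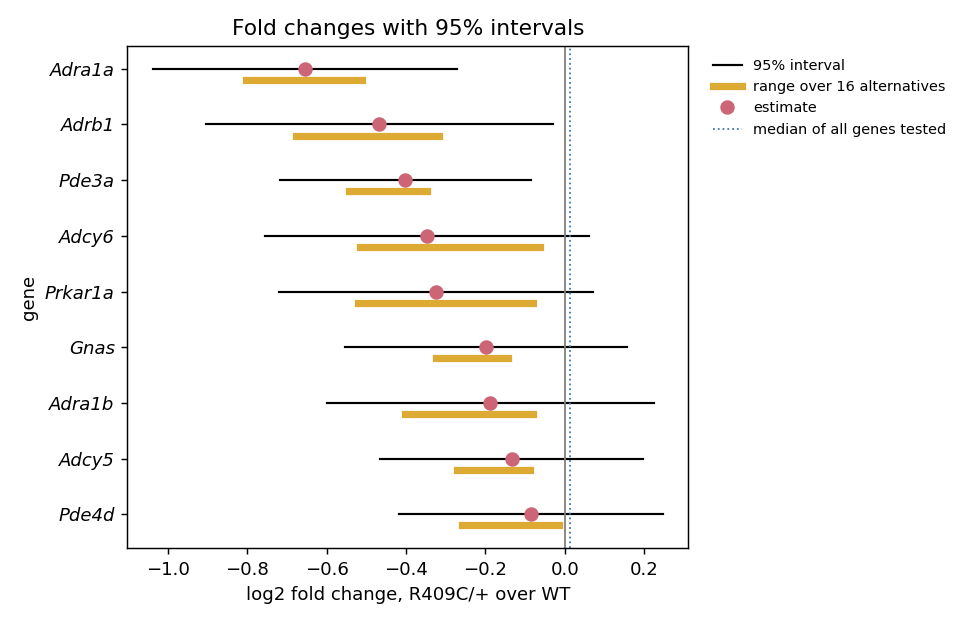
Log2 fold change of each gene, R409C/+ over WT (x axis), with its 95% interval (black) and the range of estimates over 16 alternative fits (yellow); the dotted line is the median of all genes tested. All 9 estimates lie below 0, and the intervals of Adra1a, Adrb1 and Pde3a do not reach it.

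The balance between genes of the same role was compared within each mouse, where the scaling of libraries cancels but any effect of gene length does not. The ratio of *Adra1a* to *Adra1b* counts was 0.639, 0.482 and 0.778 in WT and 0.459, 0.440 and 0.433 in R409C/+ LVs. Each R409C/+ ratio lay below each WT ratio. The log2 difference between group means was -0.49, with an exact two-sided permutation p of 0.1, the smallest that 3 against 3 mice can give, and 0.2 after adjustment over the 4 ratios compared. The ratio of *Pde3a* to *Pde4d* counts was 6.12, 6.57 and 5.61 in WT and 4.38, 4.97 and 5.35 in R409C/+ LVs. These groups did not overlap either, and the difference of -0.32 had the same exact p of 0.1 and adjusted value of 0.2. The ratio of *Adra1a* to *Adrb1* was 1.05, 0.567 and 0.647 in WT and 0.839, 0.653 and 0.499 in R409C/+ LVs, and overlapped (log2 difference -0.16, exact p 0.7). The ratio of *Adcy5* to *Adcy6* was 0.509, 0.592 and 0.411 in WT and 0.683, 0.492 and 0.578 in R409C/+ LVs, and overlapped as well (log2 difference 0.22, exact p 0.5). Corrected for gene length, the fitted log2 fold changes were -0.55 for *Adra1a* and -0.34 for *Adra1b*, closer together than the -0.65 and -0.19 of the uncorrected fit. The exact permutation test cannot give a p under 0.05 with 3 against 3 mice.

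**Figure D3:**
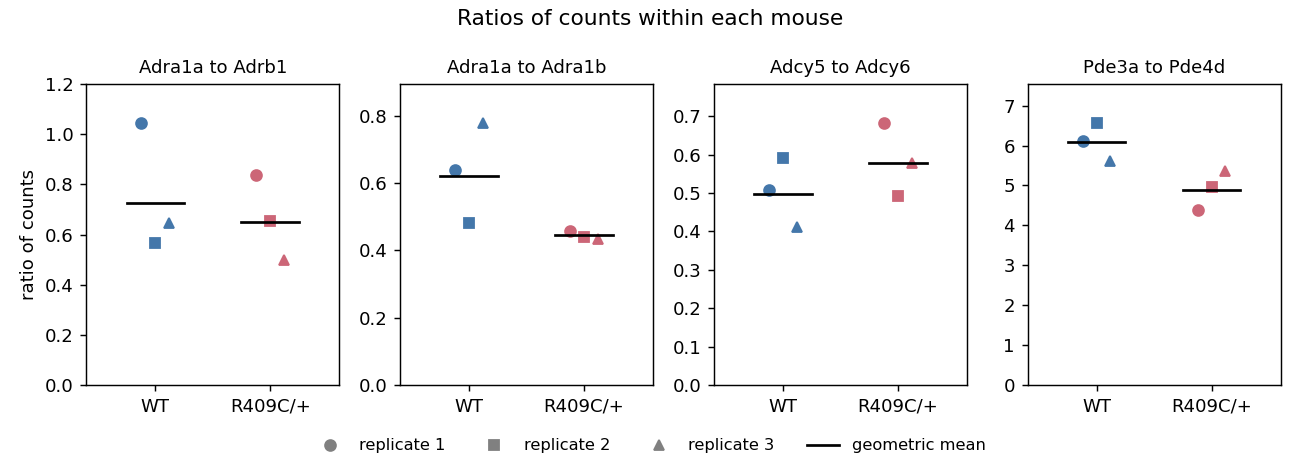
Ratio of the counts of 2 genes within each mouse (y axes linear, from 0) for 4 pairs; a point is 1 mouse, its shape the replicate number, and the bar the geometric mean. The groups are apart for Adra1a to Adra1b and Pde3a to Pde4d and overlap for the other pairs.

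To compare genes with one another, CPM were divided by the length of annotated exon in kilobases. In WT LVs *Gnas* (62.3 ± 6.69 CPM per kb, SD, n = 3) and *Prkar1a* (58.8 ± 11.5) led, and their ranges overlapped. *Adcy6* (24.4 ± 3.77) and *Adcy5* (11.3 ± 0.548) followed, each apart from its neighbours. *Pde3a* (8.74 ± 0.362), *Adra1b* (8.34 ± 1.99) and *Adrb1* (7.04 ± 1.11) came next, with overlap between neighbours. *Pde4d* (1.27 ± 0.0487) and *Adra1a* (0.859 ± 0.143) were lowest. The receptors were below *Gnas* and both cyclases per length. Lengths of all annotated exons are long for genes with many isoforms, and with the length of the canonical transcript alone *Pde4d* came to 7.52 and *Adra1a* to 3.96 CPM per kb in WT. *Adra1a* was again the lowest of the 9, while the WT ranges of *Pde4d* and *Adrb1* overlapped, and in R409C/+ LVs the mean of *Adrb1* (5.83 CPM per kb) was below that of *Pde4d* (7.09 CPM per kb).

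Within their families and by all exons, *Adra1b* held 81.7% ± 3.39 (SD, n = 3) of the α1 receptor transcripts per length in WT. By canonical transcripts *Adra1b* held 64.8% ± 5.23. *Adra1a* held 8.63% by all exons but 28.3% by canonical transcripts. *Adcy6* held 57.1% ± 5.97 and *Adcy5* 26.7% ± 2.13 of adenylyl cyclase transcripts. *Pde3a* held 39.5% ± 2.85 and *Pde4d* 5.77% of PDE3 and PDE4 transcripts by all exons, but 22.7% and 19.0% by canonical transcripts, where *Pde4a* led with 36.3%. *Prkar1a* held 84.0% ± 2.75 of PKA regulatory subunit transcripts. *Adrb3*, the β3 receptor, had 0 counts in all mice. *Adra1d*, the α1D receptor, was at 3.99 ± 0.118 CPM in WT and 4.05 ± 1.74 CPM in R409C/+ LVs. *Prkaca*, the main catalytic subunit of PKA, was at 169.7 ± 17.9 and 180.6 ± 31.4 CPM (log2 fold change 0.090), and *Prkacb*, another catalytic subunit, at 79.9 ± 7.45 and 65.3 ± 10.7 CPM (-0.29). *Prkar2a*, the type II regulatory subunit, was at 115.8 ± 7.52 and 103.8 ± 6.28 CPM (-0.16). *Pde3b* was at 6.46 ± 1.43 and 6.87 ± 2.73 CPM (0.087), *Pde4a* at 68.3 ± 14.0 and 59.6 ± 5.39 CPM (-0.20), *Pde4b* at 32.9 ± 4.31 and 28.7 ± 5.10 CPM (-0.20) and *Adcy9* at 21.1 ± 2.76 and 18.2 ± 3.32 CPM (-0.21). None of the relatives in this paragraph that were tested passed, adjusted or not.

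**Figure D4:**
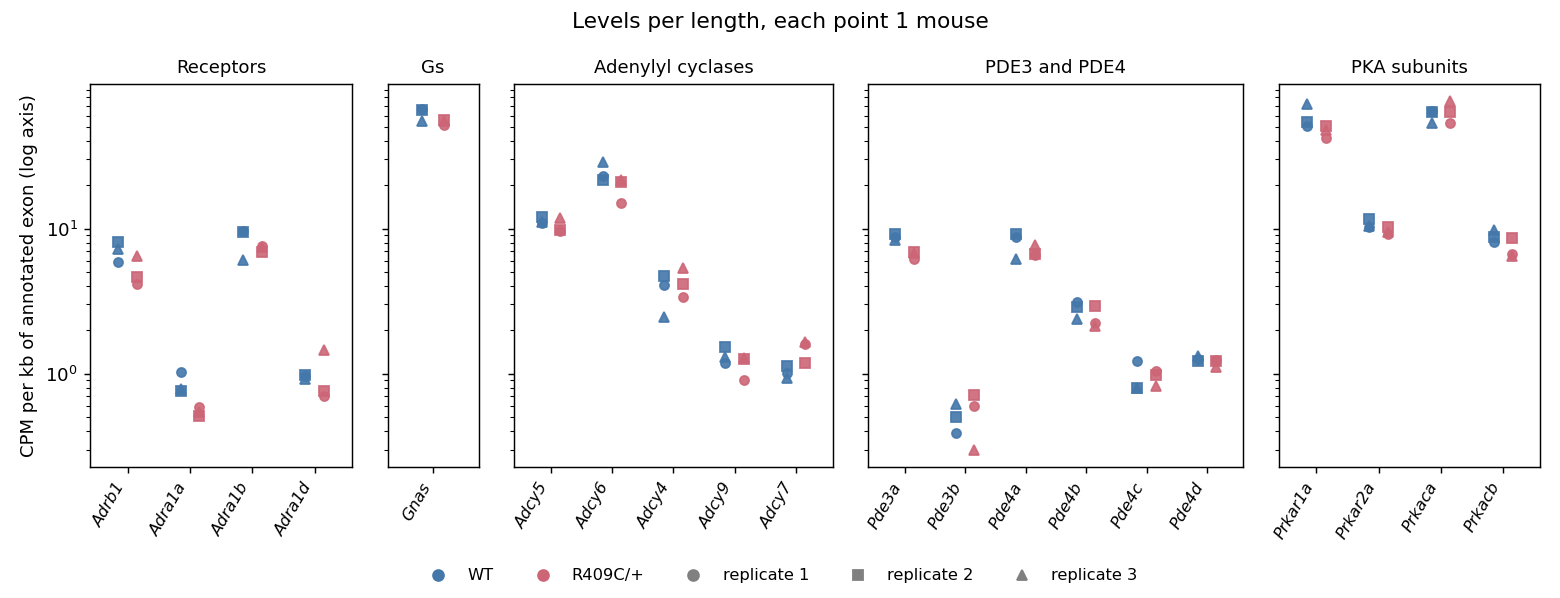
Levels in CPM per kb of annotated exon (log axis) of the 9 genes and close relatives, by role; a point is 1 mouse, blue for WT and red for R409C/+, its shape the replicate number. Adra1b leads the α1 receptors, Adcy6 the cyclases, and Prkar1a stands near Prkaca.

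The wider pathway was read through 12 lists of 143 other genes, of which 137 were tested. Of these, 71 were lower and 66 higher, against 48.6% of all genes lower, with a median log2 fold change of -0.017 and 0 called after adjustment in edgeR. At an unadjusted p under 0.05, 7 of the 137 were lower and 13 higher, against 2.86% and 5.77% of all genes. The groups did not overlap for 9 of the 137 that were lower and 12 that were higher. For all genes these shares were 7.23% and 8.3%, so the genes without overlap named below are not unusual in number. After adjustment, DESeq2's Wald test called 3 of the 137, *Rgs10*, *Pde11a* and *Fos*. Over all 17212 genes that test called 150 (136 higher, 14 lower). Of 19 further G protein subunits 12 were higher (median 0.18), and of 15 kinases, arrestins and RGS proteins that end receptor signaling 11 were higher (median 0.18). Other adenylyl cyclases were 4 higher and 3 lower (median 0.19). The list of PKA anchoring proteins was lower for 11 of 15 (median -0.14), other cyclic AMP effectors for 7 of 8 (median -0.091), CREB family members and coactivators for 6 of 8 (median -0.076), PKA substrates of excitation-contraction coupling for 6 of 10 (median -0.18), and α1 receptor effectors for 10 of 13 (median -0.083). Other phosphodiesterases (9 of 17 lower, median -0.065), other PKA subunits and inhibitors (3 of 8 lower, median 0.081) and other adrenergic and muscarinic receptors (2 of 5 lower, median 0.025) are the remaining lists. None of these splits was tested. The phosphodiesterase list holds *Pde4dip*, which encodes a scaffold and not an enzyme, and the anchoring list *Mylip*, a ubiquitin ligase. Without them 8 of 16 phosphodiesterases (median -0.030) and 11 of 14 anchoring proteins (median -0.15) were lower. Of 13 CREB-responsive transcripts 9 were higher (median 0.23).

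**Figure D5:**
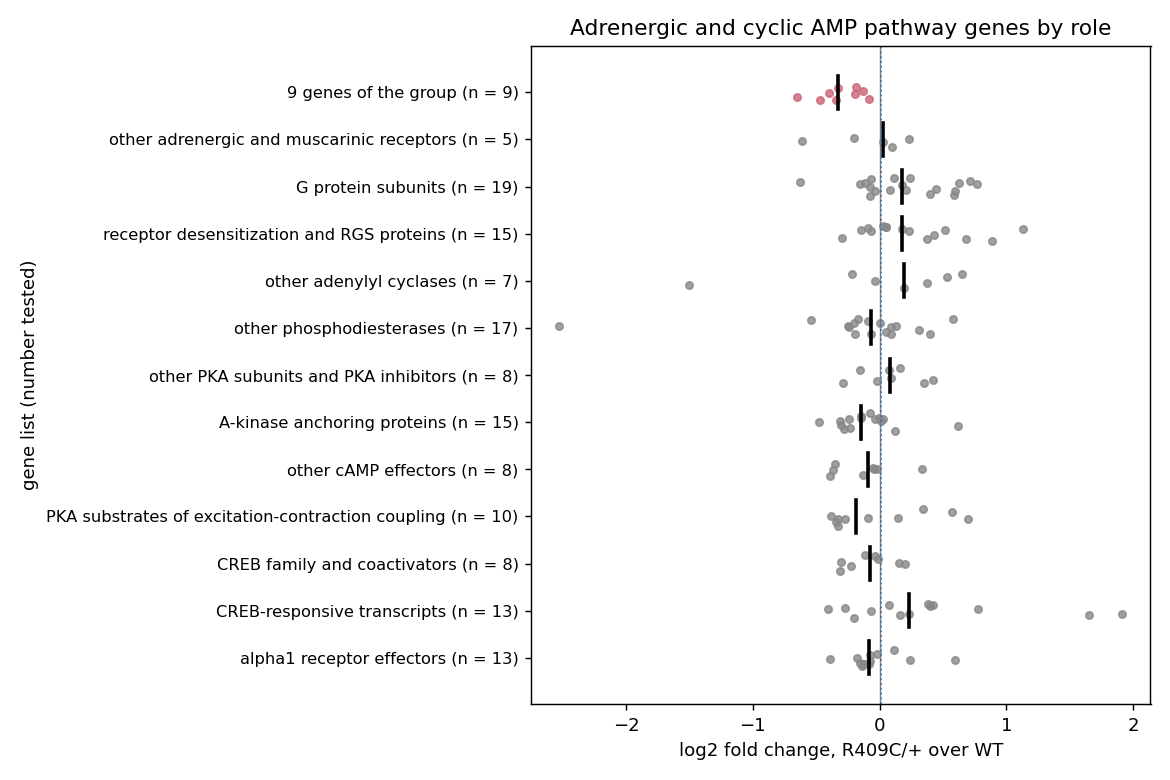
Log2 fold change, R409C/+ over WT (x axis), of each tested gene in the 9-gene group (red) and in 12 lists of other pathway genes (grey); the black bar is the list's median and the dotted line the median of all genes tested. The 9 genes all lie below 0, while the 12 lists spread to both sides.

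Among receptor-near genes with the smallest p, *Rgs10*, an RGS protein that shortens signaling by inhibitory G proteins, was at 2.56, 1.65 and 2.49 CPM in WT and at 6.57, 3.34 and 4.77 CPM in R409C/+ LVs (log2 fold change 1.13, adjusted p 0.275 in edgeR). *Arrb1*, which encodes β-arrestin 1 that uncouples receptors, was at 19.9, 21.0 and 22.0 CPM in WT and at 24.6, 30.7 and 34.5 CPM in R409C/+ LVs (log2 fold change 0.51, adjusted p 0.414). The groups did not overlap for either gene. *Gng2*, a γ subunit, was higher at 6.46 ± 0.551 against 3.94 ± 0.661 CPM (adjusted p 0.365), and *Gng12*, another γ subunit, was at 30.9, 12.3 and 29.1 CPM in WT and at 41.1 ± 5.33 CPM in R409C/+ LVs (adjusted p 0.499), with WT mouse 2 far below the other mice. *Adcy1* (6.52 ± 0.970 against 4.17 ± 0.350 CPM, adjusted p 0.425) and *Adcy7* (17.1 ± 3.02 against 11.8 ± 1.14 CPM, adjusted p 0.455) were likewise higher without overlap, both far below *Adcy5* and *Adcy6*. The sparse *Adcy8*, chosen after its values were seen, was lower without overlap at 0.220 ± 0.120 against 0.632 ± 0.106 CPM (log2 fold change -1.50, adjusted p 0.512). The summed macrophage markers were higher in the same mice, and their part in these differences was not tested.

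Downstream, *Akap6*, which anchors PKA and phosphodiesterase at the nuclear envelope of cardiomyocytes, was at 189.7, 180.2 and 213.3 CPM in WT and at 130.2, 153.2 and 136.3 CPM in R409C/+ LVs. Its groups did not overlap, and its log2 fold change of -0.47 had an adjusted p of 0.422 in edgeR. *Ryr2*, the calcium release channel that PKA phosphorylates, was at 1097 ± 62.5 CPM in WT and 871.3 ± 155.8 CPM in R409C/+ LVs (log2 fold change -0.33), also without overlap. *Cacna1c*, the pore of the L-type calcium channel, was at 201.5 ± 34.3 and 154.1 ± 25.1 CPM (-0.39, adjusted p 0.597), and *Bves*, a cyclic AMP-binding Popeye protein, at 70.5 ± 6.05 and 53.8 ± 11.1 CPM (-0.39, adjusted p 0.568). *Hcn2*, a pacemaker channel that opens on hyperpolarization and binds cyclic AMP, was at 30.8 ± 4.32 and 38.8 ± 7.93 CPM (0.34). Of the other genes with the smallest p in their lists, the CREB relative *Atf1* had a log2 fold change of -0.32, the CREB coactivator *Crtc3* of -0.31, the phospholipases *Plcb1* and *Plcb2* of -0.39 and 0.60, and the muscarinic receptor *Chrm2* of -0.20. The α2C receptor *Adra2c* was sparse at 0.370 CPM in WT and 0.238 CPM in R409C/+ LVs. *Akap5* was higher at 4.94 ± 1.53 against 3.21 ± 0.536 CPM (adjusted p 0.568).

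Of the other phosphodiesterases, *Pde7a* was at 58.7 ± 17.0 CPM in WT and 40.4 ± 9.05 CPM in R409C/+ LVs (log2 fold change -0.54, adjusted p 0.554). *Pde11a*, a dual cyclic AMP and cyclic GMP enzyme, was sparse at 0.681, 1.21 and 1.88 CPM in WT and at 0.0902, 0.0979 and 0.455 CPM in R409C/+ LVs. Its log2 fold change of -2.52 had an adjusted p of 0.274 in edgeR and of 0.0184 in DESeq2's Wald test. The immediate early genes *Fos* and *Fosb*, which CREB and many other signals turn on, were higher in every R409C/+ mouse. *Fos* was at 1.01, 1.23 and 1.35 CPM in WT and at 1.48, 8.18 and 3.88 CPM in R409C/+ LVs (log2 fold change 1.91, adjusted p 0.274, 0.00808 by DESeq2), with a wide spread among R409C/+ mice. *Fosb* was at 0.442 ± 0.0747 and 1.39 ± 0.710 CPM (log2 fold change 1.65, adjusted p 0.331).

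The genes whose pattern over the 6 mice was most like that of *Adra1a*, by the root mean square difference of centred log2 CPM among 11806 genes whose mean log2 CPM lay within 3 of its own, were *Ttc30a2* (0.0909), *Zranb3* (0.0964) and *Aox1* (0.119). Their mean levels went from 2.11 to 1.33, from 3.03 to 1.99 and from 21.8 to 15.7 CPM.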

How the data were processed

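LV mRNA of 6 mice was sequenced, 1 library per mouse. Per the labels and methods, the authors trimmed reads with Trim Galore, aligned them to GRCm39 with HISAT2, excluded rRNA and counted genes with StringTie. Versions, annotation release and strand setting are not given in the sources used here. The deposited values are raw counts per gene, and 0 columns belonged to no sample. A second deposited table holds the authors' own comparison (log2 fold changes, log2 CPM, p-values and adjusted p-values), of which the gene names alone were used.

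Genotypes were compared on the counts with edgeR 4.0.16 (R 4.3.3): filterByExpr, TMM, robust quasi-likelihood F test, Benjamini-Hochberg adjustment over 17212 genes, threshold 0.05. CPM use TMM-scaled library sizes. Ratios within a mouse were compared by exact permutation over mice. Positions and exon lengths are from GENCODE vM39 (GRCm39), and promoter windows from RefSeq (GRCm38.p6). On simulated counts, 94 of 200 genes changed by a log2 of 1 were recovered, with 7 false calls among 16716 genes tested. That change is larger than the fitted ones of the 9 genes (-0.65 to -0.085), and recovery at their sizes was not simulated.

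The 9 genes and all lists were chosen with earlier results of these data known. Genes named are the 9, *Lztr1*, close relatives, the 2 smallest p in each list, and the 3 most like *Adra1a*; any further ones were chosen after their values were seen. Replicates differed by more than sampling noise. Alternatives were other scalings, filters and thresholds, DESeq2 1.42.0, a length correction, a replicate block and leaving out mice. Leaving out WT mouse 3 and R409C/+ mouse 1 together was chosen after seeing the data. One item of the named relatives is not reported here. The other age and the proteomics of the study were not analysed here.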

Additional observations from a re-analysis of the deposited data

How the results depend on the processing

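All 9 genes kept a log2 fold change under 0 in each of 16 alternative fits. The count of genes called after adjustment, 7 of all genes, was 21 with library size scaling alone (15 higher, 6 lower), 150 with DESeq2's Wald test (136 higher, 14 lower), 20 with no filter on low counts, 16 at a threshold of 0.1, 1486 at an unadjusted p under 0.05 (993 higher, 493 lower), 1 without WT mouse 3 and R409C/+ mouse 1 together, and between 2 and 4 with 1 mouse left out. Of the 9 genes, 3 passed the unadjusted threshold, 1 with library size scaling alone, 2 with upper quartile scaling, and between 1 and 3 with 1 mouse left out. Their median log2 fold change of -0.32 was -0.52 with library size scaling alone, which moved the median of all genes by -0.16, and -0.25 without WT mouse 3 and R409C/+ mouse 1. It lay between -0.40 and -0.22 with 1 mouse left out. The other pathway genes called numbered 2 with library size scaling alone (*Pde11a*, *Fos*), 3 with DESeq2 (*Rgs10*, *Pde11a*, *Fos*) and 20 unadjusted, against 0. The log2 difference in the *Adra1a* to *Adrb1* ratio was between -0.35 and 0.10 with 1 mouse left out, turning to 0.10 without WT mouse 1 and 0.027 without R409C/+ mouse 3. That of *Adra1a* to *Adra1b* lay between -0.67 and -0.32 (-0.32 without WT mouse 3), that of *Adcy5* to *Adcy6* between 0.078 (without WT mouse 3) and 0.34 (without WT mouse 2; 0.099 without R409C/+ mouse 1 and 0.33 without R409C/+ mouse 2), and that of *Pde3a* to *Pde4d* between -0.38 and -0.24. The causes were not tested. The labels do not say whether same-numbered mice are pairs. Their deviations did not go together (r across genes -0.0013, 0.022 and -0.057), which does not settle it, since pairing need not show across all genes. A fit with the replicate number as a block called 1 gene. The median exon length was 9751 bases for the 9 genes against 5487 for all tested. The length correction subtracted a trend of log2 fold change on exon length, fitted over the tested genes with a known length. It gives no test, and under it *Pde4d* was at -0.015.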
